A study of Homo sapiens with 44 samples.

Results

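The 10 genes described here encode the core and accessory subunits of Polycomb repressive complex 2 (PRC2): the methyltransferases EZH2 and EZH1, the core subunits EED and SUZ12, and the accessory subunits PHF1, MTF2, PHF19, EPOP, JARID2 and AEBP2. They were chosen by name, and all 10 were found among the 58735 genes of a table of read counts and among the 27315 gene symbols of a table of variance-stabilised values. RNA was sequenced from 2 human triple-negative breast cancer lines, MDA-MB-231 and SUM149, in 7 groups of 2 biological replicates. In the first experiment MDA-MB-231 cells received a control siRNA, siRelA or siRelB, which target the NF-kB subunits RELA and RELB. In the second, MDA-MB-231 and SUM149 cells received a control siRNA or siEZH2. All groups were transfected with 20 nM siRNA and collected 48 h later.

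PRC2 places methyl groups on lysine 27 of histone H3 (H3K27me3), a mark of silenced genes. EZH2 or its paralogue EZH1 carries the catalytic site and is active only together with EED, which reads the mark, and SUZ12, which holds the complex together. The accessory subunits define different forms: one contains PHF1, MTF2 or PHF19, the Polycomb-like proteins, and may contain EPOP, and the other contains JARID2 and AEBP2. EZH2 is known as an abundant protein of dividing and cancer cells, where E2F factors drive its gene, whereas EZH1 is known for resting cells.

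Depth and cell identity were checked first. The count libraries held 18.6 to 24.4 M reads, and totals recovered by inverting the variance stabilisation were 17.4 to 38.1 M. RELA changed by -3.71 on the log2 scale in the siRelA libraries and RELB by -2.98 in the siRelB libraries, and RELB also by -1.48 in the siRelA libraries (edgeR adjusted p = 1.4e-12, 6.4e-09 and 1.6e-06). RELB fell with siEZH2 too, by -1.02 in MDA-MB-231 and -0.50 in SUM149 (limma adjusted p = 1.7e-07 and 0.00011). RELA did not pass with siEZH2 in either line. The part of RELB in the siEZH2 results was not tested. The libraries labelled SUM149 went in part against that label, an epithelial line. The epithelial keratin KRT5 averaged 1021 back-transformed normalised counts in the SUM149 controls and was at 0 in those of MDA-MB-231. CDH1, the epithelial cadherin, reached only 109 ± 10.3 in the SUM149 controls (SD, n = 2), against 24.2 ± 0.500 in MDA-MB-231. KRT8 and KRT18 went the other way, with 4168 and 7931 in the SUM149 controls against 12889 and 21372 in those of MDA-MB-231. KRT17 (249 against 16.8) and EPCAM (1527 against 1353) were higher in the SUM149 controls, like KRT5 and CDH1. KRT14 averaged under 1 in both. The 7 epithelial markers together summed to 14804 to 15205 in the SUM149 controls and to 35055 to 36255 in those of MDA-MB-231, most of it from KRT8 and KRT18. All 4 mesenchymal markers (VIM, ZEB1, FN1, SNAI2) were present in both, and their sum was 265160 to 286160 in the SUM149 controls against 39454 to 41166 in those of MDA-MB-231, most of it from FN1. Of 5 fibroblast markers only DCN was higher in the SUM149 controls, with 2112 against 2.22. LUM and PDGFRA were at 0 there, against 67.9 and 1.66 in those of MDA-MB-231. PDGFRB had 8.29 against 37.9 and COL1A1 163 against 183. The part of these markers in the results for the SUM149 libraries was not tested. Of 5 blood cell markers CD3E, of T cells, was at 0 in all 14 libraries. CD68, of macrophages, averaged 1566 in the MDA-MB-231 controls of the second experiment and 2204 in those of SUM149. In the first experiment CD68 was nearly absent from MDA-MB-231. It averaged 0.11 CPM (read counts scaled to library size) in the controls, 0.04 with siRelA and 0.26 with siRelB. The 2 experiments thus disagreed on the presence of CD68 in this line, and the reason was not tested.

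Promoter sequences are shown for JARID2 and PHF19, whose RNA moved most in the NF-kB knockdowns beside EPOP, and for SUZ12, which fell with siEZH2 in both lines. EED also fell with siEZH2 in both lines, and its sequence is not printed. They come from RefSeq on GRCh38.p14, which held 12 start sites for 9 of the 10 genes, EPOP having none, and each run is the 250 bases before a start, written 5′ to 3′ in the direction of transcription. The kappa B consensus, bound by NF-kB, and the E2F site in its 4 spellings TTTCCCGC, TTTGGCGC, TTTCGCGC and TTTGCCGC were searched on both strands. Capitals mark a match. JARID2 has a first start with the window chr6:15245819-15246068 and a downstream start with chr6:15248605-15248854, both on the plus strand.
JARID2 first start: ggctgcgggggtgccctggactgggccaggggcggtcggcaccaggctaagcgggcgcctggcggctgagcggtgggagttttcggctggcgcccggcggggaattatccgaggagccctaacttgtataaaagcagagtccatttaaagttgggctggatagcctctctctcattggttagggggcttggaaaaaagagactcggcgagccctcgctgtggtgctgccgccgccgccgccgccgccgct
JARID2 downstream start: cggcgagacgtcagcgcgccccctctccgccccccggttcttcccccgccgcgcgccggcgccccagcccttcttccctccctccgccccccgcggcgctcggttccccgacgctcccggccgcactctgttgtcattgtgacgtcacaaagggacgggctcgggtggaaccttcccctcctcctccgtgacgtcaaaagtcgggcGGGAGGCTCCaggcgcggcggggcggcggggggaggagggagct
The first window holds neither motif, and the downstream window holds a kappa B match 44 bases before the start. PHF19 lies on the minus strand, with the window chr9:120877189-120877438 before the upstream of its 2 starts, and SUZ12 on the plus strand, with chr17:31936757-31937006.
PHF19: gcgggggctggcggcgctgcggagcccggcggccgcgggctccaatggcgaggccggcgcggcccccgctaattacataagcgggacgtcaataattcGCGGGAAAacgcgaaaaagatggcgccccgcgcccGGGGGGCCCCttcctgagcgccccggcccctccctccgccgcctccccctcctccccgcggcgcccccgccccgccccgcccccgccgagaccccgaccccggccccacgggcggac
SUZ12: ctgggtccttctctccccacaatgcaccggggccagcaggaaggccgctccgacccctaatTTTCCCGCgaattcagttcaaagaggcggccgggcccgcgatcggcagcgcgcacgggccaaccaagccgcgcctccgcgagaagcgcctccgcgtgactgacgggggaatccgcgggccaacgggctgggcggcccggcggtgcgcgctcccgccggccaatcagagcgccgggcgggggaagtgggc
The PHF19 window holds an E2F match 152 bases and a kappa B match 117 bases before the start, which do not overlap, and the SUZ12 window an E2F match 189 bases before it. PHF1 has a kappa B match, GGGGATTCCC, 216 bases before its start, and EZH1 and AEBP2 each have an E2F match. Neither motif occurs in any window of EZH2, EED or MTF2, or in the window before the downstream start of PHF19. Over 35116 windows of this length, 9.96% held a kappa B match and 2.79% an E2F match. Counted by gene, 11.8% of 27305 genes had a kappa B match and 3.40% an E2F match in any window, against 3 and 4 of the 9 PRC2 genes with a window. The 27305 genes are all those with a window, of any type and whether expressed in these cells or not. They were not matched to the PRC2 genes in base content or number of windows, and the difference was not tested. Capitals are matches of letters, not sites shown to be bound.

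Levels of different genes were compared per length, as CPM (read counts scaled to library size) per kilobase, in the MDA-MB-231 control libraries of the first experiment. PHF19 stood highest, at 40.2 ± 0.709 CPM per kilobase of annotated exon (SD, n = 2), followed by PHF1 at 26.9 ± 1.04 and SUZ12 at 19.7 ± 1.61. JARID2 (11.3 ± 0.198) and EZH2 (10.2 ± 0.372) came next, then MTF2 (7.05) and EED (5.89). EPOP (4.84), AEBP2 (4.56) and EZH1 (4.02) were lowest, and of the neighbours in this order EPOP and AEBP2, and AEBP2 and EZH1, overlapped between libraries. The place of EZH2 and EED depended on the length used, because their annotated exons sum to far more than 1 transcript (10774 against 4502 bases for EZH2). Per kilobase of the longest transcript EZH2 stood at 24.3 and EED at 14.9, both above JARID2 at 11.7. PHF19, PHF1 and SUZ12 kept the first places with either length.

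**Figure D1:**
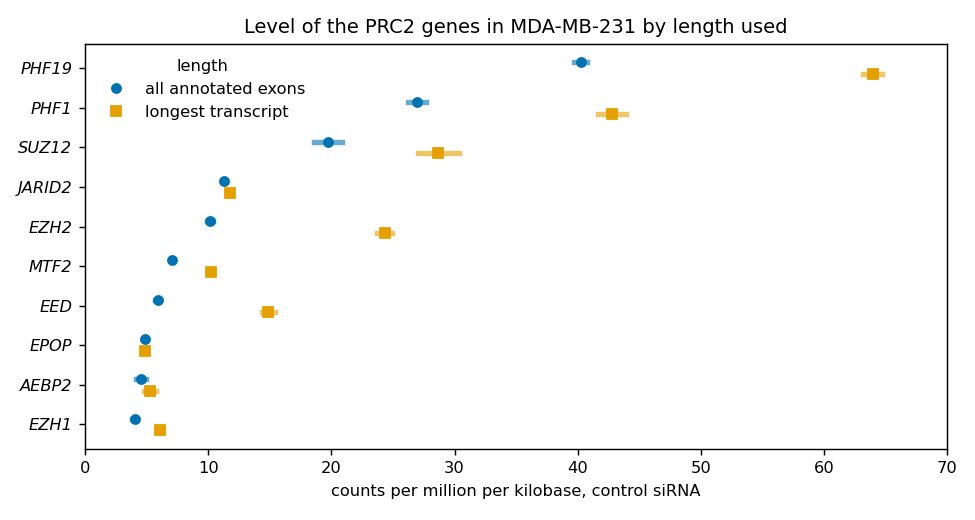
Level of the 10 PRC2 genes in MDA-MB-231 with control siRNA, in CPM per kilobase on a linear axis. Points are means and lines the range of the 2 control libraries; blue circles use all annotated exons as length and orange squares the longest transcript. PHF19 is highest with both lengths (40.2 and 64.0), and EZH2 moves from 10.2 to 24.3.

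The comparison of siRelA with control siRNA in MDA-MB-231 asks which PRC2 genes change when RELA is lowered. RELB fell in the same libraries (-1.48), and its part in the siRelA changes was not tested. JARID2 and EZH1 rose and EPOP fell, and the other 7 did not pass the test. Of all 15930 genes tested 8.82% were called higher and 10.2% lower at an adjusted p under 0.05, against 2 and 1 of the 10. The members' median change was -0.04 and their median absolute change 0.13, against 0.02 and 0.27 over all genes. Changes are log2 fold changes with the standard error of the fit, from edgeR's quasi-likelihood test with Benjamini-Hochberg adjustment over all genes, and rest on 2 libraries per group.

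The methyltransferase EZH2 had 112 and 107 CPM in the control libraries, 107 and 116 with siRelA and 122 in both siRelB libraries. The siRelA libraries overlapped the controls and the siRelB libraries lay above them, but neither change passed (0.03 ± 0.09 and 0.16 ± 0.09, edgeR adjusted p = 0.866 and 0.237). EZH1 had 26.8 and 29.4 CPM in the controls, 36.4 and 36.2 with siRelA and 33.1 and 31.9 with siRelB. All 4 knockdown libraries lay above both controls, and EZH1 rose 1.29-fold with siRelA (0.37 ± 0.12, edgeR adjusted p = 0.0364). That call was lost when any 1 of the 4 libraries compared was left out (0.29 to 0.43, edgeR adjusted p = 0.0978 to 0.313) and without the filter on low counts (0.0711). With siRelB the change of EZH1 was 0.21 ± 0.12 (edgeR adjusted p = 0.242). As a share of the summed EZH1 and EZH2 level per kilobase, EZH1 made up 26.9% and 29.8% in the controls, 34.3% and 32.4% with siRelA and 29.5% and 28.8% with siRelB. The siRelA libraries were above all others, but with the longest transcript as length the means fell from 28.3%, 33.4% and 29.1% to 20.0%, 24% and 20.6%, and 2 libraries against 2 allow no exact test below 0.33.

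The core subunits did not pass in either knockdown. EED had 39.7 and 42.8 CPM in the controls, 35.2 and 42.9 with siRelA and 41.9 and 50.5 with siRelB, so the groups overlapped. SUZ12 had 122 and 136 CPM in the controls, 112 and 109 with siRelA and 117 and 106 with siRelB. All 4 knockdown libraries were below both controls, with changes of -0.22 ± 0.09 and -0.21 ± 0.09 (edgeR adjusted p = 0.111 and 0.130). EED shares 3.16% of its exon bases with an antisense RNA, and no label gives the strand setting of the counting. The pseudogene SUZ12P1 took 124 to 224 counts per library, so reads of SUZ12 could be shared with it.

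Among the Polycomb-like proteins, which help PRC2 bind chromatin, PHF19 fell with siRelB. PHF19 spans 120855651 to 120894896 of chromosome 9 (GRCh38). It had 269 and 262 CPM in the controls, 253 and 233 with siRelA and 179 and 187 with siRelB. The siRelB libraries lay below all 4 others, a 1.45-fold fall (-0.54 ± 0.08, edgeR adjusted p = 0.00020), whereas with siRelA the change was -0.12 ± 0.08 (edgeR adjusted p = 0.327). MTF2 had 41.8 and 41.5 CPM in the controls, 36.7 and 39.5 with siRelA and 33.8 and 35.2 with siRelB. Its groups did not overlap, yet neither change passed (-0.13 ± 0.11 and -0.27 ± 0.11, edgeR adjusted p = 0.473 and 0.103). PHF1, with 90.98 to 103 CPM in all 6 libraries, stood at 0.00 ± 0.09 and 0.09 ± 0.09.

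EPOP, which links PRC2 to the elongin complex, fell in both knockdowns. On chromosome 17 at 38671703 to 38674957, it had 15.4 and 16.1 CPM in the controls, 6.72 and 7.55 with siRelA and 10.6 and 9.59 with siRelB. No library of one group overlapped another, and the fall was 2.21-fold with siRelA (-1.14 ± 0.18, edgeR adjusted p = 0.00020) and 1.56-fold with siRelB (-0.64 ± 0.17, edgeR adjusted p = 0.0154). Both falls are measured against the same control libraries. The siRelA call held without any 1 library (-1.24 to -1.08). The siRelB call was lost when control replicate 1 (-0.68), control replicate 2 (-0.62) or replicate 2 of siRelB (-0.58) was left out, with edgeR adjusted p up to 0.114.

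JARID2, a substrate of EZH2 that recruits PRC2 to its targets, rose with siRelA. On chromosome 6 at 15246069 to 15522042, it had 69.7 and 71.4 CPM in the controls, 139 and 121 with siRelA and 60.05 and 55.3 with siRelB. Both siRelA libraries lay far above the controls and both siRelB libraries below them. The rise with siRelA was 1.85-fold (0.88 ± 0.10, edgeR adjusted p = 6.6e-06) and held without any 1 library (0.76 to 0.98). With siRelB the change of -0.29 ± 0.10 missed the threshold (edgeR adjusted p = 0.0525), and it passed in 3 of 7 alternatives that kept every library (adjusted p = 0.0303 to 0.0661 over the 7). AEBP2, a zinc finger subunit that stimulates the enzyme, had 28.0 and 33.7 CPM in the controls, 34.0 and 32.8 with siRelA and 40.7 and 35.4 with siRelB. The siRelA libraries overlapped the controls and the siRelB libraries did not, with changes of 0.12 ± 0.13 and 0.30 ± 0.13 that did not pass (edgeR adjusted p = 0.601 and 0.114).

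Markers of other cell types also moved in these libraries. The 5 fibroblast markers summed to 30.3 to 31.9 CPM in the controls, 47.3 to 56.9 with siRelA and 36.6 to 41.6 with siRelB, mostly from COL1A1 (means of 19.1, 36.4 and 25.7), and DCN was at 0 in all 6 libraries. CSF1R averaged 11.2 CPM in the controls, 16.0 with siRelA and 7.08 with siRelB. The 4 mesenchymal markers summed to 1373 to 1530 CPM in the controls, 1483 to 1502 with siRelA and 1244 to 1254 with siRelB, most of it from VIM. They did not move as one: SNAI2 had means of 45.6, 47.8 and 29.5, FN1 of 248, 260 and 185 and ZEB1 of 85.2, 58.5 and 62.5. The 7 epithelial markers summed to 1253 to 1352, 1326 to 1451 and 1354 to 1366 CPM, and EPCAM averaged 20.4, 20.7 and 13.0. Their part in the changes of JARID2, EPOP, EZH1 and PHF19 was not tested.

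**Figure D2:**
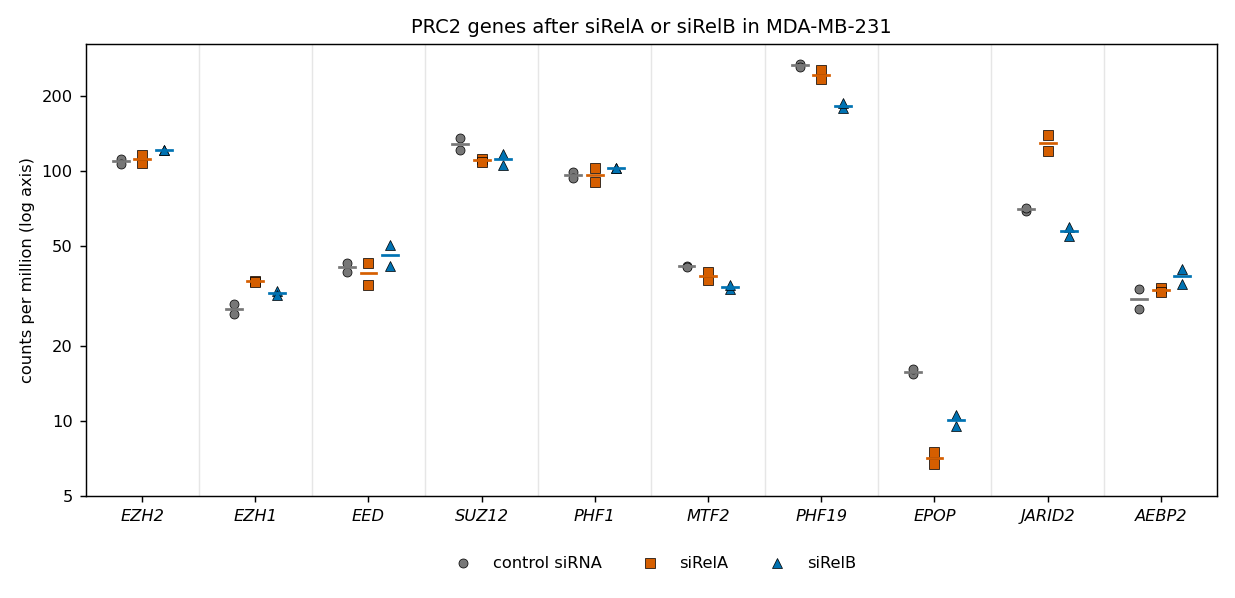
CPM (log axis) of the 10 PRC2 genes in each library of the first experiment, MDA-MB-231 with control siRNA (grey circles), siRelA (orange squares) or siRelB (blue triangles), 2 libraries per group; short lines are group means. JARID2 is high in both siRelA libraries (139 and 121) and EPOP is low in all 4 knockdown libraries (6.72 to 10.6).

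In all, siRelB against control called 0 of 10 members higher and 2 lower, where 7.45% of all genes were higher and 10.8% lower. The members' median change was -0.06 and their median absolute change 0.24, against 0.01 and 0.27 over all genes. Set against each other, siRelA gave higher JARID2 than siRelB (1.17 ± 0.10, edgeR adjusted p = 2.5e-07), a 2.26-fold difference, and higher PHF19 (0.41 ± 0.08, edgeR adjusted p = 0.0010). EPOP was lower with siRelA than with siRelB (-0.50 ± 0.18, edgeR adjusted p = 0.0441), but this passed in only 2 of 7 alternatives (adjusted p = 0.0397 to 0.0837) and in none of the 4 fits that left out 1 library (-0.59 to -0.43). The other 7 did not pass, giving 2 higher and 1 lower against 16.0% and 14.0% of all genes, with a median change of -0.05 against 0.01.

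Of the genes in the same chromatin pathway, RBBP4 and RBBP7 are the histone-binding core subunits of PRC2, and LCOR and LCORL give rise to the PALI accessory proteins. RBBP4 and LCOR are named here after their values were seen. RBBP4 had 87.2 and 92.5 CPM in the controls, 60.5 and 59.7 with siRelA and 108 and 114 with siRelB. The 3 groups did not overlap: it fell with siRelA (-0.58 ± 0.09, edgeR adjusted p = 0.00024) and rose with siRelB (0.31 ± 0.09, edgeR adjusted p = 0.0231), the latter not called when any 1 library was left out (0.26 to 0.34). LCOR rose with siRelA (0.57 ± 0.10, edgeR adjusted p = 0.00061) and was at -0.27 ± 0.10 with siRelB (edgeR adjusted p = 0.0755). RBBP7 and LCORL passed in neither.

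Counts over the fixed lists of Polycomb-related genes are given as higher and lower of those tested. Over all genes the shares were 8.82% and 10.2% with siRelA, 7.45% and 10.8% with siRelB, and 16.0% and 14.0% between siRelA and siRelB. With siRelA they were 5 and 3 of 23 PRC1 subunits, 0 and 0 of 2 H3K27 demethylases, 1 and 1 of 5 genes of the PR-DUB deubiquitinase, 0 and 0 of 5 H3K36 methyltransferases, 5 and 2 of 11 E2F and RB family genes and 2 and 4 of 15 proliferation genes. The 3 largest called changes were the activator E2F2 (1.17 ± 0.18), CBX7 (0.88 ± 0.22), a reader of H3K27me3 in PRC1, and the repressor E2F7 (-0.81 ± 0.10). CBX7 lost its call without control replicate 2 (0.79) or siRelA replicate 2 (0.62). With siRelB the counts were 2 and 2 of 23, 1 and 0 of 2, 0 and 1 of 5, 0 and 2 of 5, 4 and 3 of 11 and 2 and 1 of 15 for the same lists in that order. RRM2, a subunit of ribonucleotide reductase, stood at 1.14 ± 0.10, RYBP, a subunit of variant PRC1, at -1.04 ± 0.12 and the repressor E2F5 at 0.91 ± 0.16. Between siRelA and siRelB the counts were 4 and 3 of 23, 0 and 1 of 2, 1 and 0 of 5, 0 and 0 of 5, 4 and 3 of 11 and 2 and 6 of 15, with E2F5 at -1.07 ± 0.16, RYBP at 1.06 ± 0.12 and RBBP4 at -0.89 ± 0.09. The summed proliferation genes were 4021 to 4083 CPM in the controls, 3904 to 4156 with siRelA and 4100 to 4164 with siRelB, so siRelA spanned the controls and siRelB lay just above them. List medians lay between -0.20 and 0.26 with siRelA, where the median of all genes was 0.02.

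The comparison of siEZH2 with control siRNA asks what follows loss of EZH2 mRNA. The values of the second experiment are variance-stabilised, on a log2-like scale that understates changes, more so at lower counts. Ratios of back-transformed counts therefore exceed the fitted changes. For EZH2 in MDA-MB-231 they were 9.08-fold and 5.72-fold, and for AEBP2 between the control lines 3.39-fold and 2.72-fold. Beside EZH2, the core partners EED and SUZ12 and the accessory EPOP fell in both lines, and PHF1 and MTF2 rose in both. JARID2 fell slightly in MDA-MB-231 and rose in the SUM149 libraries. In MDA-MB-231, 2 of 10 members were called higher and 6 lower, where 29.4% of the 12356 genes tested were higher and 27.1% lower, and in SUM149 3 were higher and 5 lower against 29.4% and 28.6%. The members' median change was -0.18 in MDA-MB-231 and -0.16 in SUM149, against 0.00 over all genes in both. Tests are from limma with Benjamini-Hochberg adjustment over all genes.

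EZH2 had 3022 and 3020 back-transformed normalised counts under control siRNA in MDA-MB-231 and 368 and 298 with siEZH2. In SUM149 it had 2563 and 2746 in the controls and 442 and 517 with siEZH2. The knockdown libraries lay far below the controls in both lines, 9.08-fold in MDA-MB-231 and 5.54-fold in SUM149, and the fitted changes were -2.52 ± 0.07 and -2.003 ± 0.07 (limma adjusted p = 5.5e-11 and 4.8e-10). The fall was smaller in SUM149, by 0.51 ± 0.10 (limma adjusted p = 0.0035). EZH1 had 1225 and 1428 under control siRNA in MDA-MB-231 against 1230 and 1090 with siEZH2, and 725 and 822 against 661 and 750 in SUM149. These groups overlapped, and neither change passed (-0.16 ± 0.08 and -0.10 ± 0.08, limma adjusted p = 0.110 and 0.309), though with the libraries centred on their medians EZH1 was called lower in MDA-MB-231 (-0.20, limma adjusted p = 0.0494).

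The core subunits fell together with EZH2. EED had 1511 and 1606 normalised counts under control siRNA in MDA-MB-231 and 1157 and 1223 with siEZH2, and 1766 and 1773 against 1465 and 1453 in SUM149. SUZ12 had 2574 and 2715 against 1897 and 2114 in MDA-MB-231, and 2174 and 2092 against 1763 and 1563 in SUM149. For both genes every siEZH2 library lay below every control library of its line. EED was 1.31-fold and 1.21-fold lower (-0.33 ± 0.06 and -0.24 ± 0.06, limma adjusted p = 0.00021 and 0.0021), and SUZ12 1.32-fold and 1.28-fold lower (-0.36 ± 0.07 and -0.32 ± 0.07, limma adjusted p = 0.00040 and 0.0010). Their falls held without any 1 library, and the difference between lines did not pass for either (0.09 ± 0.08 and 0.04 ± 0.09). RBBP4, the histone-binding core subunit, fell too (-0.31 ± 0.06 and -0.41 ± 0.06, limma adjusted p = 0.00078 and 7.5e-05), while RBBP7 stood at 0.12 ± 0.05 and 0.00 ± 0.05 and did not pass. Of 15 proliferation genes 3 rose and 8 fell in MDA-MB-231, where 29.4% of all genes were higher and 27.1% lower, and 2 rose and 8 fell in SUM149, against 29.4% and 28.6%. CCNA2 and PCNA rose in both lines (0.59 ± 0.05 and 0.41 ± 0.07 in MDA-MB-231, 0.27 ± 0.05 and 0.39 ± 0.07 in SUM149) and are named after their values were seen. The summed level of all 15 proliferation genes was 114270 to 118470 under control siRNA in MDA-MB-231 and 103170 to 103980 with siEZH2. In SUM149 it was 166000 to 166600 against 148010 to 154690. The part of the proliferation genes in the fall of EED and SUZ12 was not tested. Mesenchymal marker sums also moved with siEZH2, from 39454 to 41166 in the controls up to 61125 to 61334 in MDA-MB-231 and from 265160 to 286160 up to 477530 to 499180 in SUM149. The summed fibroblast markers went from 288 to 298 up to 391 to 436 and from 2217 to 2351 up to 4622 to 4866. They did not move as one. In MDA-MB-231 PDGFRB went from 37.9 to 193, while COL1A1 (183 to 167) and LUM (67.9 to 48.8) fell. In SUM149 most of the sum was DCN, which went from 2112 to 4480. COL1A1 went from 163 to 251 there and PDGFRB from 8.29 to 7.47. The summed epithelial markers went from 35055 to 36255 down to 26269 to 27822 in MDA-MB-231 and from 14804 to 15205 up to 15577 to 16288 in SUM149. Within that list EPCAM went from 1353 to 537 in MDA-MB-231 and from 1527 to 171 in SUM149. KRT18 fell too, from 21372 to 13545 in MDA-MB-231 and from 7931 to 6093 in SUM149. KRT8 averaged 12889 and 12946 in MDA-MB-231. In SUM149, by contrast, KRT5 went from 1021 to 1858, KRT8 from 4168 to 7038, KRT17 from 249 to 618 and CDH1 from 109 to 152. The summed blood cell markers were mostly CD68, which was nearly absent from the MDA-MB-231 libraries of the first experiment. Their sum went from 1491 to 1776 up to 3438 to 3525 in MDA-MB-231. In SUM149 it went from 2019 to 2459 up to 5131 to 5498. CSF1R, another macrophage marker, went from 66.5 to 182 in MDA-MB-231 and from 34.8 to 119 in SUM149. Their part in the PRC2 results was not tested, and in cultures a change in cell makeup and in RNA per cell cannot be told apart.

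The Polycomb-like genes did not move as one. MTF2 had 1552 and 1543 normalised counts under control siRNA in MDA-MB-231 and 1941 and 1998 with siEZH2, and 1385 and 1392 against 1573 and 1720 in SUM149. It rose without overlap in both lines (0.30 ± 0.06 and 0.21 ± 0.06, limma adjusted p = 0.00042 and 0.0056), but the SUM149 call was lost without siEZH2 replicate 2 (0.15, limma adjusted p = 0.0695). PHF1 had 1600 and 1574 against 1884 and 1708 in MDA-MB-231, and 592 and 609 against 810 and 849 in SUM149. The rise of PHF1 was 1.38-fold in SUM149 (0.35 ± 0.06, limma adjusted p = 0.00025). In MDA-MB-231 it was 1.13-fold and close to the threshold (0.15 ± 0.06, limma adjusted p = 0.0430), and not called in 3 of 8 alternatives (adjusted p = 0.0411 to 0.129 over the 8) or without control replicate 1 (0.16), control replicate 2 (0.14) or siEZH2 replicate 1 (0.09). PHF19 had 4479 and 4295 against 3817 and 3715 in MDA-MB-231, and 3188 and 3379 against 3684 and 3462 in SUM149. It was lower in MDA-MB-231 (-0.21 ± 0.05, limma adjusted p = 0.0053), not called there without control replicate 1 (-0.18, limma adjusted p = 0.0550), and in SUM149 the change was 0.11 ± 0.05 (limma adjusted p = 0.0885) although the groups did not overlap.

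EPOP had 520 and 506 normalised counts under control siRNA in MDA-MB-231 and 378 and 353 with siEZH2, and 339 and 328 against 271 and 241 in SUM149. All siEZH2 libraries lay below their controls, and EPOP fell 1.40-fold and 1.30-fold (-0.32 ± 0.06 and -0.22 ± 0.06, limma adjusted p = 0.00076 and 0.0088). On log2 of the back-transformed count plus 1, a scale chosen after seeing the data, these changes were -0.49 and -0.38. The SUM149 call was lost without siEZH2 replicate 2 (-0.18, limma adjusted p = 0.0797).

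JARID2 had 2833 and 3008 normalised counts under control siRNA in MDA-MB-231 and 2521 and 2669 with siEZH2. In SUM149 it had 2035 and 1967 in the controls and 3036 and 2812 with siEZH2. Control JARID2 was thus higher in MDA-MB-231, and with siEZH2 the SUM149 libraries were at the level of the MDA-MB-231 controls. The rise in SUM149 was 1.46-fold (0.49 ± 0.06, limma adjusted p = 8.2e-06) and held without any 1 library (0.44 to 0.54). The fall in MDA-MB-231 was small (-0.16 ± 0.06, limma adjusted p = 0.0324), and it was lost without control replicate 2 (-0.12), without siEZH2 replicate 1 (-0.12) and without the filter on low values (limma adjusted p = 0.0535). AEBP2 had 622 and 650.5 against 686 and 619 in MDA-MB-231, where the groups overlapped (0.03 ± 0.06, limma adjusted p = 0.742). In SUM149 it had 2191 and 2116 against 1827 and 1746, a fall without overlap (-0.24 ± 0.06, limma adjusted p = 0.0040).

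**Figure D3:**
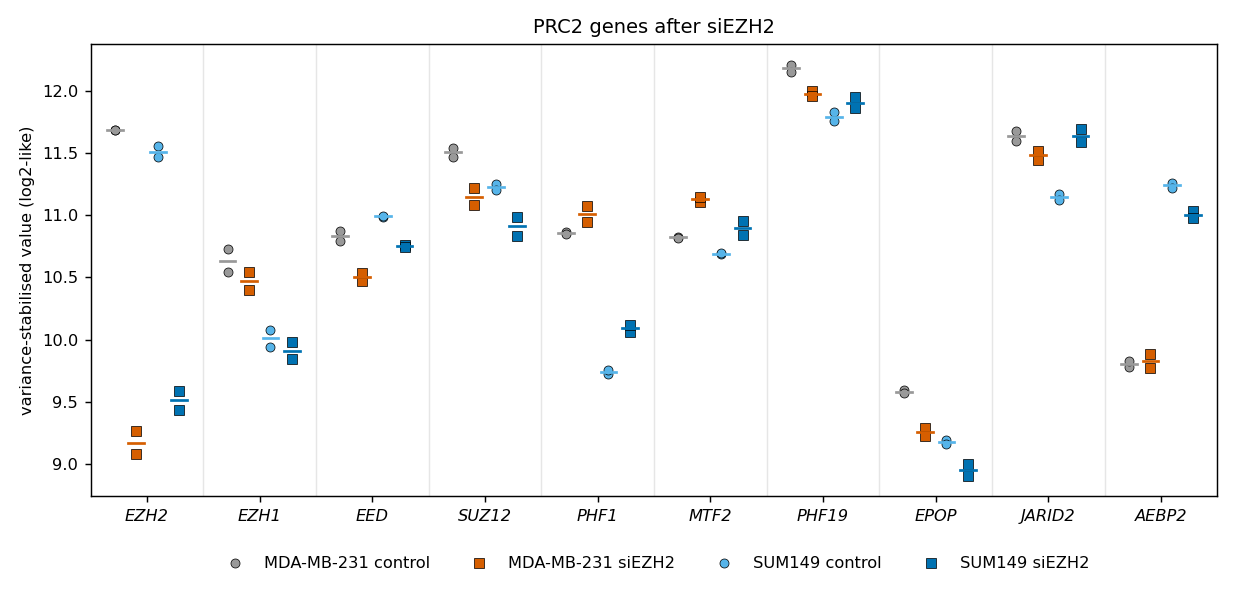
Variance-stabilised values (log2-like scale) of the 10 PRC2 genes in each library of the second experiment, with circles for control siRNA and squares for siEZH2, grey and orange for MDA-MB-231 and light and dark blue for SUM149; short lines are means of 2 libraries. EED and SUZ12 are lower with siEZH2 in both lines, and JARID2 is higher with siEZH2 in SUM149 and slightly lower in MDA-MB-231.

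The difference of the siEZH2 effect between lines was tested as an interaction, SUM149 minus MDA-MB-231. It was called higher for 3 of 10 members and lower for 1, where 11.2% of all genes were higher and 10.4% lower, and the members' median was 0.09 against -0.01 over all genes. JARID2 differed most (0.65 ± 0.08, limma adjusted p = 0.00011, 0.60 to 0.70 without any 1 library), followed by EZH2 and by PHF19 (0.32 ± 0.08, limma adjusted p = 0.0095). PHF19 was not called without MDA-MB-231 control replicate 1 (0.29, limma adjusted p = 0.0544). AEBP2 (-0.26 ± 0.08, limma adjusted p = 0.0410) was called in 3 of 7 alternatives (adjusted p = 0.0369 to 0.0716) and in 1 of 8 fits that left out a library (-0.32 to -0.21). The smaller loss of EZH2 in SUM149 goes with the same libraries, and its part in the other differences was not tested.

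**Figure D4:**
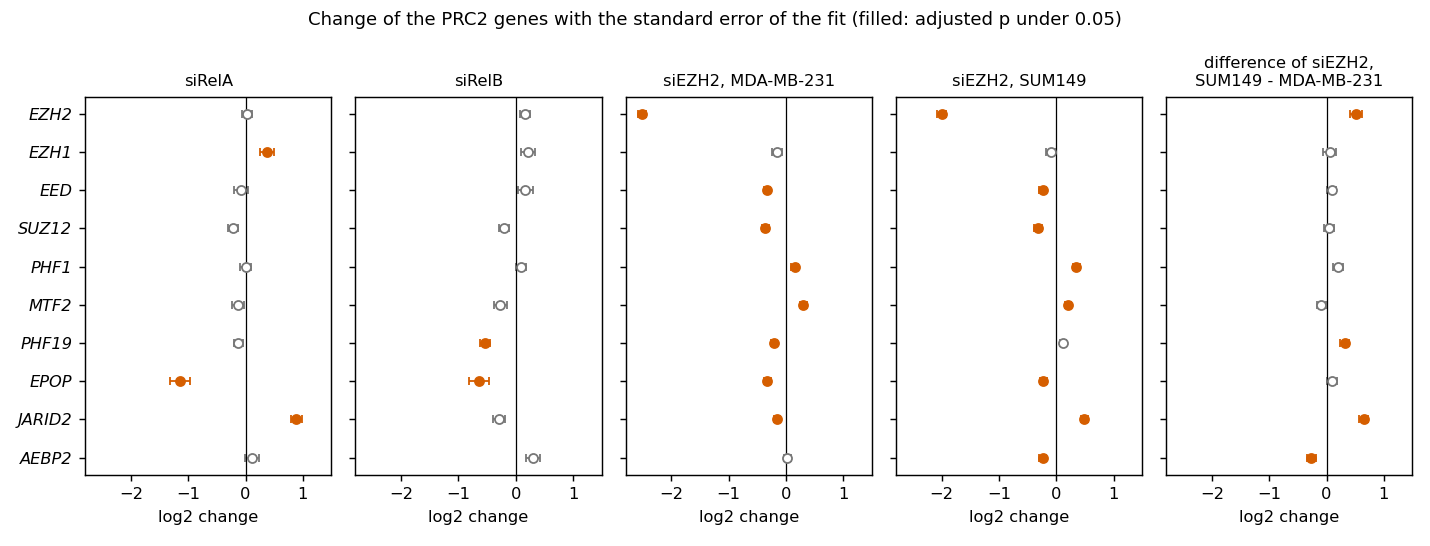
Log2 change of the 10 PRC2 genes (points) with the standard error of the fit (bars) for siRelA and siRelB in MDA-MB-231, siEZH2 in each line, and the difference of the siEZH2 effect, SUM149 minus MDA-MB-231. Filled orange points passed an adjusted p under 0.05; EZH2 is at -2.52 and -2.003 with siEZH2, and JARID2 at 0.88 with siRelA and 0.49 with siEZH2 in SUM149.

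The lists around PRC2 were counted in the same way for siEZH2. Over all genes 29.4% were higher and 27.1% lower in MDA-MB-231, and 29.4% and 28.6% in SUM149. For the difference between lines the shares were 11.2% and 10.4%. In MDA-MB-231, 1 of 4 other PRC2 genes was higher and 2 lower, 6 and 5 of 23 PRC1 subunits, 0 and 1 of 2 H3K27 demethylases, 0 and 3 of 5 PR-DUB genes, 2 and 2 of 5 H3K36 methyltransferases and 2 and 7 of 11 E2F and RB family genes. In SUM149 the counts were 0 and 2, 8 and 4, 0 and 1, 0 and 3, 1 and 2 and 2 and 5. MCM3, a subunit of the replicative helicase, changed by -1.10 ± 0.06 and -0.80 ± 0.06 in MDA-MB-231 and SUM149 and E2F5 by -0.75 ± 0.07 and -0.74 ± 0.07. The third of each comparison was MCM6 in MDA-MB-231 (-0.74 ± 0.07) and the H3K27 demethylase KDM6B in SUM149 (-0.53 ± 0.08). On log2 of the back-transformed count plus 1, E2F5 in SUM149 changed by -1.34 and KDM6B by -0.90. For the difference between lines the counts were 0 and 0 of 4, 7 and 1 of 23, 0 and 0 of 2, 0 and 0 of 5, 0 and 1 of 5, 3 and 0 of 11 and, for proliferation genes, 3 and 4 of 15. The largest were CBX6, a PRC1 chromobox protein (-0.70 ± 0.07), PHC2, a PRC1 polyhomeotic protein (0.50 ± 0.09), and the repressor E2F8 (0.44 ± 0.11). E2F8 was not called without MDA-MB-231 control replicate 1 (0.39), MDA-MB-231 siEZH2 replicate 2 (0.35) or SUM149 siEZH2 replicate 2 (0.43).

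Under control siRNA all 10 members differed between the lines, 2 higher and 8 lower in the libraries labelled SUM149, where 41.3% of all genes were higher and 41.5% lower. The members' median was -0.33 against 0.00 over all genes, and their median absolute change 0.40 against 0.48. AEBP2 was 3.39-fold higher in SUM149, with 2191 and 2116 against 622 and 650.5 normalised counts (1.44 ± 0.06, limma adjusted p = 3.6e-11). PHF1 was 2.64-fold lower (-1.12 ± 0.06, limma adjusted p = 5.8e-10) and EZH1 1.71-fold lower (-0.62 ± 0.08, limma adjusted p = 6.7e-06), in both cases without overlap. JARID2 (-0.49 ± 0.06), EPOP (-0.41 ± 0.06), PHF19 (-0.39 ± 0.05) and SUZ12 (-0.28 ± 0.07) were lower too, with limma adjusted p from 2.1e-06 to 0.0013, and for EPOP the value on log2 of the back-transformed count plus 1 was -0.62. The smaller differences depended on single libraries. EZH2 (-0.17 ± 0.07, limma adjusted p = 0.0437) was called in 3 of 7 alternatives (adjusted p = 0.0363 to 0.133) and in 1 of 4 fits without a library (-0.22 to -0.13). The replicate block was among the alternatives that missed, and it set unlike replicates of the 2 lines against each other. MTF2 (-0.13 ± 0.06, limma adjusted p = 0.0397) was called in none of those 4 fits (-0.14 to -0.13), and EED (0.16 ± 0.06, limma adjusted p = 0.0159) lost its call without MDA-MB-231 control replicate 1 (0.12) or SUM149 control replicate 2 (0.16).

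In the same comparison RBBP4 was higher in SUM149 (1.34 ± 0.06) and RBBP7 lower (-0.63 ± 0.05, limma adjusted p = 1.1e-10 and 4.0e-08). Other PRC2 genes were higher in 1 and lower in 2 of 4 cases, PRC1 subunits in 7 and 11 of 23, H3K27 demethylases in 1 and 1 of 2, PR-DUB genes in 1 and 2 of 5, H3K36 methyltransferases in 3 and 2 of 5, and E2F and RB family genes in 4 and 6 of 11. Of 15 proliferation genes 10 were higher and 2 lower. The shares over all genes were 41.3% higher and 41.5% lower. RRM2 (1.56 ± 0.07), E2F4 (1.41 ± 0.06) and E2F2 (1.35 ± 0.06) had the largest called changes.

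Genes whose values followed 2 members of each experiment most closely are given as a description. Over the 6 libraries of the first experiment and 12838 genes, JARID2 was followed by ZNF267 (Pearson r = 0.999), PLCB3 (0.998) and ABCB9 (0.998), and EPOP by SENP2 (0.997), RAB11FIP2 (0.997) and ABHD5 (0.995). Over the 8 libraries of the second and 11692 genes, AEBP2 was followed by GREM1 (0.999), GTF2E1 (0.999) and GLDC (0.999), and PHF1 by BMPR2 (0.999), CTBS (0.998) and ADCY9 (0.998). AEBP2 and PHF1 were the members with the largest differences between the lines. The libraries share their groups and tables.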

How the data were processed

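Of 44 samples, 14 RNA libraries were used and 30 chromatin immunoprecipitation libraries were not analysed here. Groups and replicate numbers come from the labels. For the first experiment the authors deposited raw read counts per gene, as whole numbers. Listed in the submitters' processing notes are hg19, STAR 2.5.2b, HISAT2 2.0.5, cutadapt, Salmon, DESeq2 1.20.0 and featureCounts 1.5.0-p3. The second experiment's table, as deposited, holds variance-stabilised values, which come close to log2 of normalised counts only at high counts. Not given in the sources used here were the tool behind each table, its annotation and its strand setting. Per the labels' protocols, different facilities prepared the libraries of the 2 experiments, so no test was run on values across them.

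Counts were tested with edgeR 4.0.16 (quasi-likelihood, TMM, filterByExpr) on all 6 libraries: 15930 genes, 3 residual degrees of freedom, biological coefficient of variation 10.1%. Variance-stabilised values were tested with limma 3.58.1 (trend) on all 8 libraries, for the 12356 genes that exceeded the table's minimum of 7.12 by 1 or more in 2 or more libraries, with 4 residual degrees of freedom. R was 4.3.3 and Python used pandas and matplotlib. Calls are at Benjamini-Hochberg adjusted p under 0.05 over all genes tested. Both fits were tested on simulated data. P-values reflect the spread between 2 cultures per group.

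Back-transformed normalised counts invert DESeq2's closed-form transformation, taking its constants from the lowest value. Of values under 20 reads, 82.6% to 87.2% per library came out within 0.1 of a whole read, so they serve as a linear scale for description and no count test was run on them. Positions and lengths are from GENCODE v44 on GRCh38. All 10 members are named in every comparison. Of the fixed lists, the 3 called genes with the largest absolute change are named per comparison. Genes alike were ranked by Pearson r for up to 2 members per experiment, those with the largest called change other than EZH2. The members and lists were chosen with earlier results of these data known. Replicates of a group differed by more than counting noise (chi-square per degree of freedom 8.56 to 11.4). Alternatives were other scalings, filters and variance settings, DESeq2 1.42.0, a replicate block and leaving out each library.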

Additional observations from a re-analysis of the deposited data

Results flagged for a closer look

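The siEZH2 effect differed between the libraries labelled SUM149 and MDA-MB-231, by the test of the difference itself in limma, for 4 of 10 members. Of these, 3 were higher and 1 lower, where 11.2% of all genes were higher and 10.4% lower. The differences, SUM149 minus MDA-MB-231, were 0.65 for JARID2, which rose in SUM149 and fell slightly in MDA-MB-231, 0.51 for EZH2, which fell in both and less in SUM149, 0.32 for PHF19 and -0.26 for AEBP2. The difference of AEBP2 missed the threshold in 4 of 7 alternatives that kept every library. Among the named genes of the related lists, CBX6 differed by -0.70, PHC2 by 0.50 and E2F8 by 0.44.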

How the results depend on the processing

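No value of a member changed sign while called in any alternative. The following counts are of refits, so each member value enters once per alternative. Over alternatives that kept every library, called member values kept the call in 270 refits and lost it in 20. Uncalled member values gained a call in 4 refits of that kind. With 1 library left out, calls held in 132 refits and were lost in 36. Leaving out 1 library moved the genes called with siRelA from 3031 to between 1624 and 2790, with siRelB from 2913 to between 1520 and 2262, and for the difference between lines from 2662 to between 1611 and 2532. The members called with siRelB went from 2 to 1 in the lowest case and those of the difference from 4 to 2. With the longest transcript as length the EZH1 share was 20.0%, 24% and 20.6% (control, siRelA, siRelB). Same-numbered libraries did not deviate together (r of -0.21 to 0.09), so the numbers were not taken to pair them. A replicate block gave 2958 and 2828 genes called for siRelA and siRelB. Between the lines under control siRNA the block was nested in line, so its fit set SUM149 replicate 2 against MDA-MB-231 replicate 1. In that fit 8 members were called and EZH2 and MTF2 were not, but it cannot tell whether pairing matters to these calls. Its losses are counted among the 20 above. The replicate block ended the calls of EPOP between siRelA and siRelB (edgeR adjusted p = 0.0520) and of AEBP2 for the difference between lines (limma adjusted p = 0.0541). Crossing the block numbers in SUM149, an alternative chosen after seeing the data, gave 7278 genes and 8 members called with siEZH2. edgeR on the recovered counts was planned only if nearly all came out whole, and was not run. Limits are 2 libraries per group, an unknown strand setting and lengths that differ between annotations.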
